A study of Caenorhabditis elegans with 4 samples.

Results

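These are the protein-coding genes of dissected C. elegans gonads whose deposited cde-1 mutant against wildtype ratio was below 0 on all 4 arrays of the series, in aged and in young adults alike. They numbered 108, out of 2071 coding genes that had a named probe, a ratio on all 4 arrays and a symbol outside the classes left out by the rule (pid, eif, algn, pig, spig, nspg, lido, nlp, ints, gtf, metl and cest), so the share called among the genes tested was 5.21%. Among genes of any type with 4 ratios, 114 of 2222 (5.13%) were below 0 on every array. The rule itself used the sign of every ratio, so the levels below are a description. The one test run across all genes, given at the end, used the same ratios and supports nothing about these genes. A gene of more than 1 probe took the mean of its probes, and 107 of the 108 had 1 probe. The mutant carried the cde-1 allele tm1021, the 1 allele used, and the wildtype was N2. Each sample pooled 250 gonads, and the labels give no age in days. For aged adults and for young adults alike, 1 mutant and 1 wildtype RNA sample were compared directly on arrays of 2 colours, once in each dye orientation. An array is called below by its stage and by the dye of the mutant sample, as the aged Cy5 array. A dye swap of the same RNA counts as 1 replicate, so n = 2 over the stages.

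Ratios are given on the log2 scale, as the deposited values, taken as log10 ratios, times 3.32. No source used here states their direction. The array titles name wildtype first on 1 array of each stage and cde-1 first on the other. They do not say which sample was divided by which. Within a stage the 2 dye orientations correlated positively as deposited (Pearson 0.34 over 10309 probes in aged adults and 0.58 over 9159 probes in young adults). A genotype effect would give this if 1 array of each stage was turned before deposit. Dye effects with no array turned could also give it, and which of these held was not tested. The number format differed between orientations: exponents were used for all 12418 nonzero entries of the aged Cy5 array and all 11541 of the young Cy5 array, and for 0 entries of either Cy3 array. On that basis alone mutant over wildtype is the likely direction, which would make the 108 genes likely lower in the mutant. With the sign turned they would be higher, and if no array had been turned these averages would be dye effects. Arrays of different stages correlated between -0.31 and -0.065.

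cde-1, also known as pup-1, encodes an enzyme that adds uridines to the ends of small RNAs bound by the Argonaute CSR-1, a protein of the germline that binds transcripts of genes expressed there. In the C. elegans gonad, germ cells divide at the distal end, pass through meiosis and mature into gametes, surrounded by somatic sheath and spermathecal cells. In whole gonads, fewer cells of a type and less RNA per cell cannot be told apart. None of 48 marker genes of germ cells, sperm, oocytes, somatic gonad, intestine, muscle, hypodermis and neurons had a named probe, and neither did cde-1, so the tissue and the mutation were not checked here.

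The 108 ratios were mostly small. The mean over both stages had a median of -0.52, a 1.43-fold ratio of likely wildtype over mutant, and ran between -2.31 and -0.085. It was below -1 for 17 genes and below -0.5 for 60, while 48 lay between -0.5 and 0. Over the 2071 tested coding genes the median was 0.086. The rule's mirror image, above 0 on all 4 arrays, held for 226 coding genes (10.9%), with a median of 0.82. Genes with 10 probes, all of them with a ratio, gave a pooled SD between probes of 0.59 and 0.45 in aged adults, against 0.20 and 0.40 in young adults. Where a stage has 2 array values, the Cy5 array is given before the Cy3 array throughout. That probe error came from only 9 and 11 genes in aged adults, and from 9 on each young adult array. Measured against it, 25 of the 108 genes were more than 1 SD below 0 on all 4 arrays, and 8 were so on none. The rule had chosen the 108 on the same ratios. Any tested coding gene that far below 0 on all 4 arrays meets the rule. The 25 are therefore also the count over all 2071 tested coding genes. The count of 8 was not made over all tested coding genes.

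The gene furthest below 0 on the deposited ratios was cror-1, on chromosome II, whose role is not described here. It had -3.28 and -4.05 in aged adults, against -0.47 and -1.43 in young adults, for a mean of -2.31 ± 1.92 (SD of the 2 stage means, n = 2, as for each ± below). The stages did not overlap, and the aged adult arrays carried most of the size. C18D11.6, on chromosome III, was nearly as low with less spread. Its values were -2.73 and -2.75 in aged adults, against -2.06 and -1.24 in young adults, for a mean of -2.20 ± 0.77, a 4.59-fold ratio of likely wildtype over mutant. The order of these genes depended on the setting: C18D11.6 was the lower one after quantile normalization (-2.14, against -1.99 for cror-1), without the aged Cy3 array (-2.19, against -2.12), without the young Cy3 array (where cror-1 had -2.07), and also with both Cy3 arrays turned (-0.20, against 0.43). It was 1 of 3 genes below -1 on all 4 arrays, with C06E4.3 and F19B10.2.

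**Figure D1:**
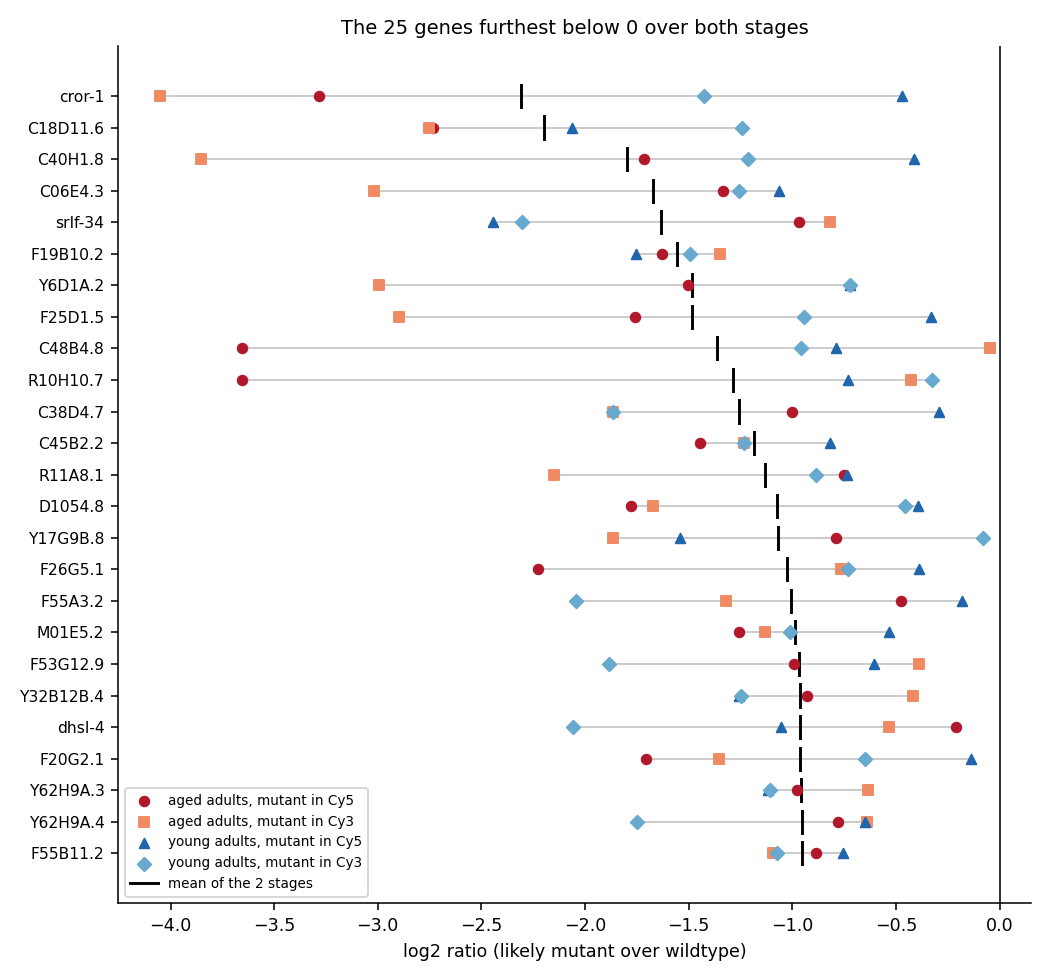
The 25 genes furthest below 0, ordered by the mean of the stage means. Each row shows a gene's log2 ratio on the 4 arrays (x axis), with circles and squares for aged adults, triangles and diamonds for young adults, a grey line for the range and a black bar for the mean. F19B10.2 and F55B11.2 have narrow rows, while C48B4.8 and R10H10.7 each have 1 aged adult point at -3.65 far from the rest.

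F19B10.2, on chromosome II, had the smallest difference between stages of the 17 genes with a mean below -1. It had -1.63 and -1.35 in aged adults, against -1.75 and -1.49 in young adults, for a mean of -1.56 ± 0.095. All 4 arrays thus lay in a range narrower than the probe error of the aged adult arrays. C06E4.3, on chromosome IV, had -1.34 and -3.02 in aged adults, against -1.07 and -1.26 in young adults, so that 1 array stood apart. C38D4.7 on chromosome III and C45B2.2 on chromosome X completed the 5 genes with both stage means below -1, at -1.44 and -1.34 in aged adults, against -1.08 and -1.03 in young adults.

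For srlf-34, on chromosome II, the young adult arrays were the lower ones. Its values were -0.97 and -0.82 in aged adults, against -2.44 and -2.31 in young adults, for a mean of -1.64 ± 1.05. The symbol stem srlf had 6 other tested genes, and all 6 had a young adult mean above 0, from 0.33 for srlf-7 to 1.24 for srlf-1. srlf-34 thus had the opposite sign to each of them in young adults. In aged adults srlf-19, at -1.08, was lower than srlf-34, at -0.90.

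Several of the low genes rested on the aged adults. C40H1.8 had -1.71 and -3.85 in aged adults, against -0.41 and -1.22 in young adults. Y6D1A.2 had -1.50 and -2.99 in aged adults, against -0.72 on both young adult arrays. F25D1.5 had -1.76 and -2.90 in aged adults, against -0.33 and -0.94 in young adults. In these 3 genes both aged adult arrays lay below both young adult arrays, and the aged Cy3 array was the lower of the aged pair. D1054.8, on chromosome V, had the same stage order with little difference between orientations, at -1.78 and -1.67 in aged adults, against -0.40 and -0.46 in young adults.

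A single array set the value of other genes in the lowest 25. C48B4.8 had -3.65 and -0.049 in aged adults, against -0.79 and -0.96 in young adults, and its mean of -1.36 became -0.46 without the aged Cy5 array and -2.26 without the aged Cy3 array. R10H10.7 had -3.65 and -0.43 in aged adults, against -0.73 and -0.33 in young adults, and its mean of -1.29 became -0.48 and -2.09 without the same arrays. F26G5.1, with a mean of -1.03, had -0.66 without the aged Cy5 array. For Y17G9B.8 the mean of -1.07 was -0.70 without the young Cy5 array, and for F55A3.2 the mean of -1.01 was -0.54 without the young Cy3 array. Over all 108 genes, leaving out 1 array moved the mean by more than 1.5 times for 30. The other genes of the lowest 25 had means from -1.13 for R11A8.1 to -0.95 for F55B11.2. This group held M01E5.2, F53G12.9, Y32B12B.4, F20G2.1, Y62H9A.3, Y62H9A.4 and dhsl-4 besides, and F55B11.2 was the tightest of them, at -0.89 and -1.09 in aged adults, against -0.75 and -1.08 in young adults.

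Of the 108 genes, 81 carried only a sequence name, for which the reference used here gives no role, and 27 (25%) a class symbol, against 441 of the 2071 tested coding genes (21.3%). The median mean ratio was -0.45 for the class-symbol genes, with 3 of them in the lowest 25, and -0.60 for the sequence-name genes. The 27 symbols came from 27 different stems, so no gene class supplied more than 1 member. All but 7 of them have a role given here as background, and these fall into chromosomes and the centrosome, RNA synthesis and processing, metabolism and mitochondria, membranes and glycosylation, and secreted proteins.

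**Figure D2:**
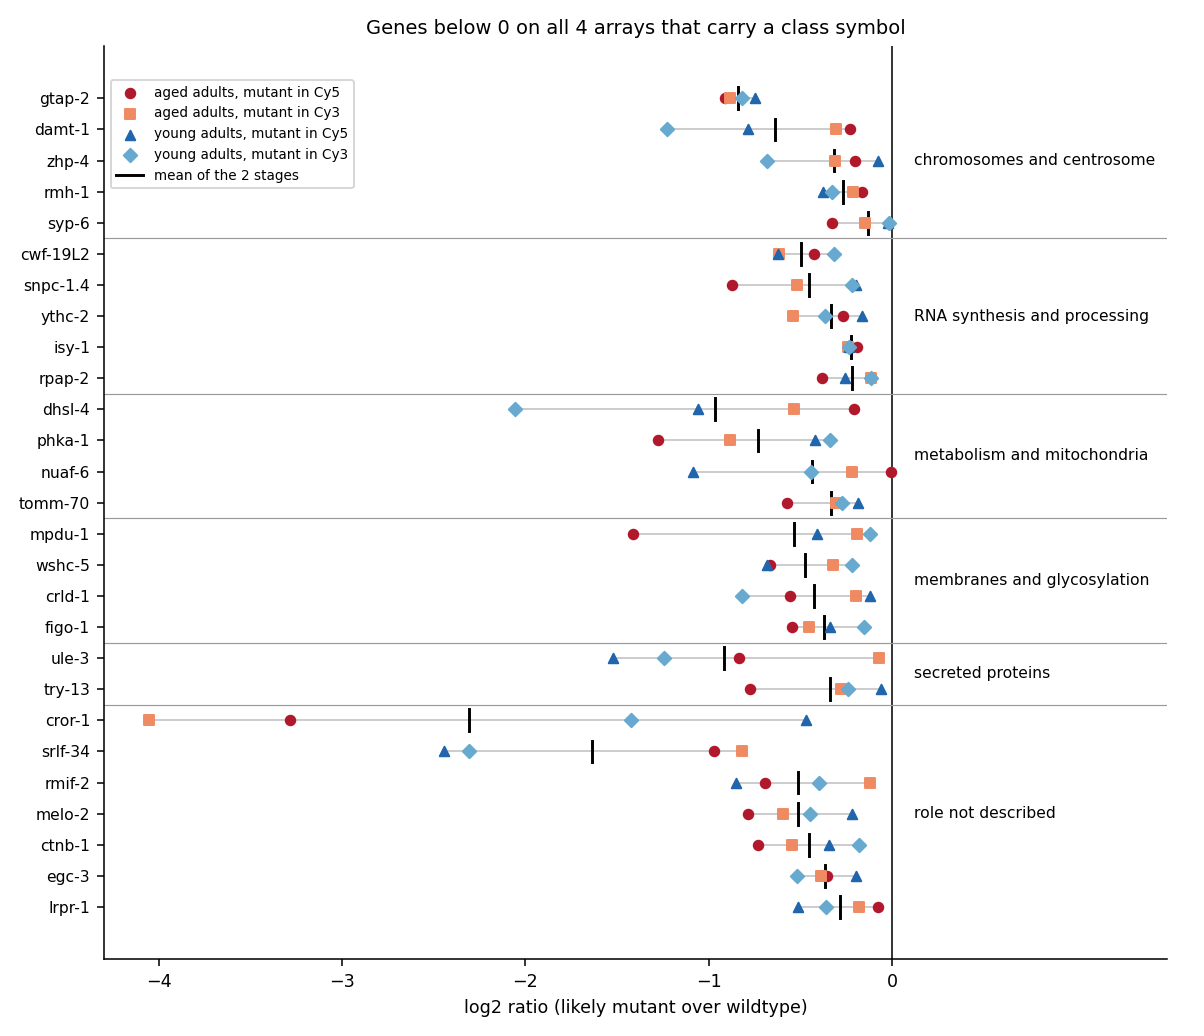
The 27 genes with a class symbol, grouped by role and ordered within a group by mean. Each row gives the log2 ratio on the 4 arrays (x axis, symbols as in the plot of the lowest genes), the range as a grey line and the mean of the stage means as a black bar. gtap-2 and isy-1 have all points close together, and apart from cror-1 and srlf-34 no mean lies below -1.

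Among genes of chromosomes and the centrosome, gtap-2 was the lowest and the steadiest. It encodes a protein associated with gamma-tubulin, which nucleates microtubules at centrosomes. gtap-2 had -0.91 and -0.89 in aged adults, against -0.75 and -0.82 in young adults, for a mean of -0.84 ± 0.083. Its values lay beyond the probe SD on all 4 arrays. Its partner gtap-1 had 0.17 and -0.36 in aged adults, against -0.84 and -1.25 in young adults, which kept it outside the rule by 1 array. damt-1, a homologue of adenine methyltransferases, had -0.23 and -0.30 in aged adults, against -0.79 and -1.23 in young adults. The stages of damt-1 did not overlap.

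Genes of meiotic chromosomes were present with small ratios. rmh-1, which acts with the Bloom helicase in controlling crossovers, had -0.16 and -0.21 in aged adults, against -0.38 and -0.33 in young adults, for a mean of -0.27 ± 0.11. Its paralogue rmh-2 had 0.30 and -0.15 in aged adults, against -0.62 and -1.08 in young adults. zhp-4, a RING finger protein of crossover sites, had -0.20 and -0.31 in aged adults, against -0.079 and -0.68 in young adults, and its mean of -0.32 was -0.17 without the young Cy3 array. The other tested members of that class, zhp-1 and zhp-2, had stage means of 0.010 and 0.20 in aged adults, against 0.14 and 0.35 in young adults. The aged adult arrays of zhp-2 differed in sign, at 0.90 and -0.50. syp-6, a protein of the synaptonemal complex that holds paired chromosomes together, had -0.33 and -0.15 in aged adults, against -0.023 and -0.020 in young adults. Its mean of -0.13, which was -0.084 without the aged Cy5 array, was among the smallest of the 108, and its paralogue syp-5 had stage means of -0.46 in aged adults and 0.16 in young adults.

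The RNA genes all had means between -0.50 and -0.22. cwf-19L2, a homologue of a splicing factor, had -0.43 and -0.62 in aged adults, against -0.62 and -0.32 in young adults, for a mean of -0.50 ± 0.038. Its class mate cwf-19L1 had 0.54 in aged adults, against -0.76 in young adults, as stage means. isy-1, a homologue of another splicing factor, had the narrowest range of the 27, at -0.19 and -0.24 in aged adults, against -0.23 on both young adult arrays. The mean of isy-1 was -0.23 ± 0.012, and its distance from 0 was smaller than the probe SD on 3 of the 4 arrays. snpc-1.4, a homologue of a subunit of the complex that starts transcription of small nuclear RNAs, had -0.87 and -0.52 in aged adults, against -0.20 and -0.22 in young adults. ythc-2, a homologue of the mammalian RNA helicase YTHDC2 that mouse germ cells need for meiosis, had a mean of -0.33 ± 0.10. rpap-2, a homologue of an RNA polymerase II phosphatase, had -0.22 ± 0.043, and its class mate rpap-3 had 0.48 in aged adults, against -0.75 in young adults.

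In metabolism, dhsl-4, a short-chain dehydrogenase by its symbol, was the lowest and had -0.21 and -0.53 in aged adults, against -1.06 and -2.06 in young adults. phka-1, the regulatory subunit of phosphorylase kinase, which activates glycogen breakdown, showed the opposite stage order. It had -1.28 and -0.89 in aged adults, against -0.42 and -0.34 in young adults, for a mean of -0.73 ± 0.50. tomm-70, a receptor for protein import at the outer mitochondrial membrane, had -0.57 and -0.31 in aged adults, against -0.19 and -0.27 in young adults. nuaf-6, a homologue of an assembly factor of respiratory complex I, had -0.0059 and -0.22 in aged adults, against -1.09 and -0.45 in young adults, and its mean of -0.44 was -0.28 without the young Cy5 array. nuaf-5, of the same class, was above 0 in both stages, at 0.67 in aged adults and 0.30 in young adults.

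In the membrane group, mpdu-1, a homologue of a protein needed to use dolichol-linked mannose in glycosylation, had -1.41 and -0.19 in aged adults, against -0.41 and -0.12 in young adults. Its mean of -0.53 was -0.23 without the aged Cy5 array and -0.84 without the aged Cy3 array. wshc-5, a subunit of the WASH complex that drives actin assembly on endosomes, had nearly the same value in both stages, with means of -0.50 in aged adults and -0.45 in young adults. Another subunit, wshc-2, had 1.56 and -0.29 in aged adults, against -0.058 and -0.33 in young adults. It was outside the rule by the aged Cy5 array alone. crld-1, an endoplasmic reticulum protein that helps assemble acetylcholine receptors, had a mean of -0.42 ± 0.067, which was -0.25 without the young Cy3 array. figo-1, a homologue of the lipid phosphatase FIG4, had -0.37 ± 0.18 and was the closest to 0 of this group.

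Of the secreted proteins, ule-3 belongs to a class named for expression in the uterine lumen. It had -0.83 and -0.070 in aged adults, against -1.52 and -1.24 in young adults, for a mean of -0.92 ± 0.66. ule-5, the other tested gene of the class, had 0.21 and 0.18 in aged adults, against -1.33 and -1.60 in young adults. Both genes were below 0 on the young adult arrays. Their gap was larger than the probe SD on the aged Cy5 array and smaller than it on the aged Cy3 array. The difference between the genes was not tested. The uterus lies next to the gonad arms, and how much of it the dissections held was not tested. try-13, of the trypsin-like proteases, had a mean of -0.34, which was -0.22 without the aged Cy5 array. The remaining class symbols, rmif-2, melo-2, ctnb-1, egc-3 and lrpr-1, had means from -0.52 to -0.28.

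Other genes of the members' classes, found by symbol, were set beside them. Of the 27 stems, 12 had at least 1 other tested gene, 18 genes in all. Of these 18, 1 (gtap-1) was below 0 in both stage means, 13 had stage means of opposite sign and 4 were above 0 in both. Over the 2071 tested coding genes, both stage means were below 0 for 14.0%, of opposite sign for 60.3% and above 0 for 25.8%. The 18 are by definition outside the rule, while the 2071 include the 108 members, all of them below 0 in both stage means. The sets are thus unlike, and a lower share below 0 among the 18 is partly built in. With 18 genes chosen by name these shares are given as a description.

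Of 75 tested genes in 10 broader lists by symbol, 4 were below 0 on all 4 arrays and 7 above, beside 5.21% and 10.9% of all tested coding genes. The share below 0 was thus near the background. The list for RNA binding, splicing and decay had 1 of 13 (cror-1, by its letters alone), with a median mean ratio of -0.026 and stage medians of 0.19 in aged adults and -0.46 in young adults. Mitochondria had 1 of 17 (tomm-70), with a median of -0.052, and 0.058 in aged adults against -0.23 in young adults. Chromosomes, DNA repair and cell cycle had 1 of 9 (syp-6), with a median of -0.13, and -0.24 in aged adults against 0.33 in young adults. In these 3 lists the stage medians had opposite signs. Signalling, receptors and kinases had 1 of 12 (srlf-34, by its letters alone), with a median of 0.11, and -0.29 in aged adults against 0.42 in young adults. Transport and membranes had 0 of 17, with a median of -0.13, and 0.39 in aged adults against -0.53 in young adults. The signs of the stage medians were opposite in both of these lists too. The lists for ribosomes, translation, and secreted, cuticle and immune genes had 0 of 4 each, with medians of -0.044, 0.028 and 0.13. Their stage medians were 0.31, 0.26 and -0.42 in aged adults, against -0.17, -0.54 and 0.68 in young adults. Those for protein folding and for metabolism had 1 tested gene each, at 0.025 and 2.77, neither of them below 0 on all 4 arrays. Over all tested coding genes the stage medians were 0.18 in aged adults and 0.025 in young adults.

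The stages were compared within the 108 genes. The aged adult mean was the lower one for 61 genes and the young adult mean for 47, with medians of -0.56 in aged adults and -0.48 in young adults. This split moved with the scaling: the aged adult mean was the lower one for 70 genes after centring, 73 after quantile normalization and 60 with each array scaled, where the medians were -0.573 in aged adults and -0.569 in young adults. Both aged adult arrays lay below both young adult arrays for 35 genes, both young adult arrays below both aged adult arrays for 21, and for 52 the stages overlapped. Stage means were within 0.2 of each other for 36 genes and over 1 apart for 17. None of these stage counts was made over all tested coding genes, so they are a description only. The rule required like signs in both stages and so is not independent of the difference between them. The median SD of the stage means was 0.23 within the 108 genes and 0.57 within all tested coding genes. The 5 closest pairs of stage means belonged to C04H5.7, Y53C12B.1, E02H1.6, C24D10.4 and egc-3. C04H5.7 had -0.63 and -0.78 in aged adults, against -0.76 and -0.65 in young adults. Its mean was -0.71, and its arrays spread more within a stage than the stage means did between stages. The 5 widest belonged to cror-1, C40H1.8, F25D1.5, Y6D1A.2 and R10H10.7, all lower in aged adults.

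**Figure D3:**
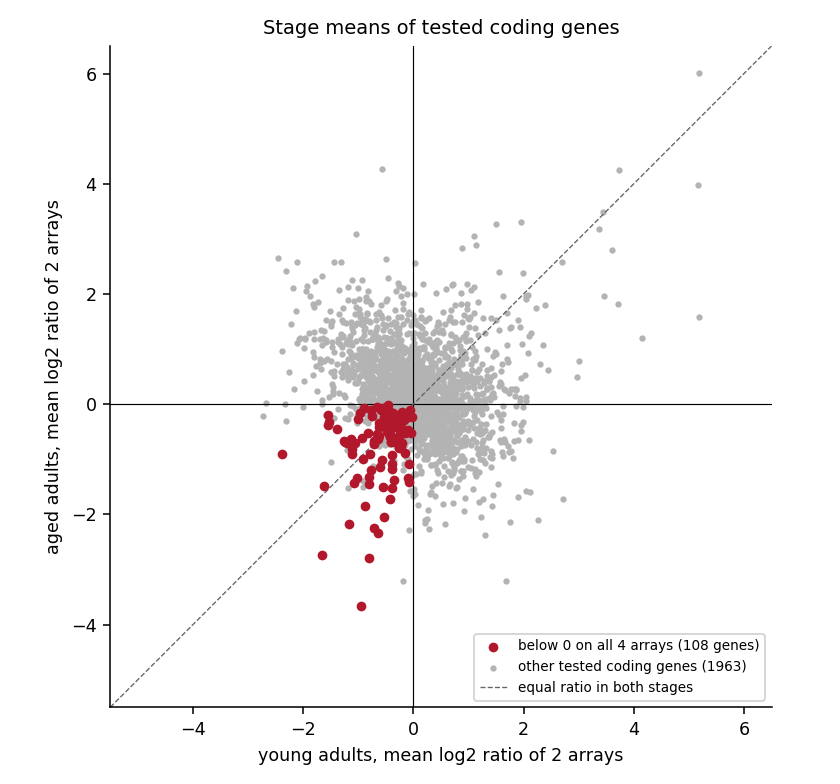
Stage means of the 2071 tested coding genes, aged adults on the y axis and young adults on the x axis, both as the mean log2 ratio of 2 arrays. The 108 genes (red) lie at the lower left by the rule, 61 of them below the dashed line of equal ratios, and 5 below -1 in both stages.

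The dye orientations differed by a median of 0.27 in aged adults and 0.27 in young adults within the 108 genes, and by 0.65 and 0.41 within all tested coding genes. The rule required like signs on all arrays and so is not independent of this measure. The Cy5 array was the lower one in both stages for 25 genes, and the Cy3 array for 29.

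The edge of the rule lay among genes with ratios near 0. The highest of a gene's 4 ratios was between -0.1 and 0 for 36 of the 108 genes, and between 0 and 0.1 for 61 genes outside. Just inside were Y67H2A.2 at -0.0025, nuaf-6 at -0.0059, F33G12.3 at -0.0064, W02D9.6 at -0.0070 and F26F4.8 at -0.0071. Just outside were K05C4.5 at 0.0010, sec-61.B at 0.0026, F53H1.3 at 0.0034, szy-5 at 0.0047 and F38B6.4 at 0.0070. The gap between the genes on either side was far smaller than the probe error. A total of 369 genes were below 0 on exactly 3 arrays, and for 158 of these the exception was the aged Cy5 array, whose median over the tested coding genes was 0.36. The medians of the other arrays were -0.0080 in aged adults, against 0.13 and -0.10 in young adults. With each array centred on the median of its probes, 158 genes met the rule, 105 of the 108 among them, and C29F7.2, C39B5.6 and Y67H2A.2 did not.

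**Figure D4:**
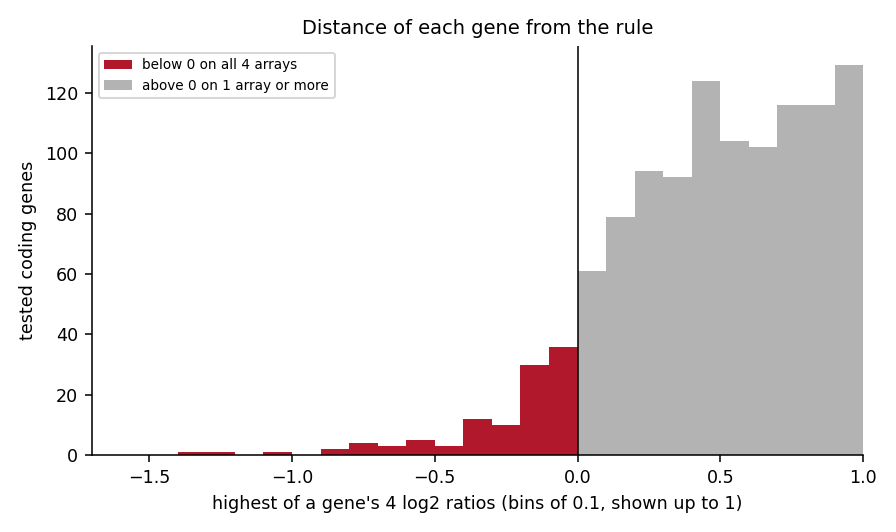
Histogram of the highest of each gene's 4 log2 ratios (x axis, bins of 0.1) against the number of tested coding genes (y axis), shown up to 1. The genes below 0 on all 4 arrays (red) are most frequent next to 0, with 36 in the last bin, and the first bin outside holds 61.

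The 108 genes were spread over the genome. By the WBcel235 annotation, used here for names, chromosomes and neighbours, 20 lay on chromosome I, 24 on II, 17 on III, 16 on IV, 21 on V and 10 on X. As a share of the tested coding genes of each chromosome this was 5.09%, 6.65%, 4.58%, 4.48%, 5.71% and 4.52%. Tested coding genes formed 323 pairs of direct neighbours, of which 38 held a member and 2 held 2 members.

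Both pairs were of sequence-name genes. Y62H9A.3 and Y62H9A.4, on chromosome X, had similar levels. Y62H9A.3 had -0.98 and -0.63 in aged adults, against -1.12 and -1.11 in young adults. Y62H9A.4 had -0.78 and -0.64 in aged adults, against -0.65 and -1.75 in young adults. ule-5 and stha-3, whose sequence names belong to the same clone, had 0.19 each in aged adults, against -1.46 and -0.93 in young adults, as stage means. These 4 genes, the ones of that clone tested here, were thus negative in young adults, and 2 of them were negative in aged adults. ZK1127.3 and ZK1127.4, on chromosome II, had stage means of -1.02 and -1.09 in aged adults, against -0.57 and -0.086 in young adults. Their means of -0.79 and -0.59 were -0.45 and -0.39 without the aged Cy5 array. Members also shared a clone without being direct neighbours in D1054 (D1054.8 and ule-3), M01E11 (ctnb-1 and rmh-1) and F26F4 (F26F4.6 and F26F4.8).

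limma, which tested the 2 stage means of 2222 genes of all types against 0, called 0 genes lower at an adjusted p under 0.05 (0% of genes), and 0 of the 108. At an unadjusted p under 0.05 it called 11 genes lower (0.495% of genes), 9 of them among the 108, which the rule had chosen on the same ratios. The lowest adjusted p among the 108 was 0.9998. With each array scaled to the same spread limma called 1 gene lower (0.045% of genes), cror-1, at an adjusted p of 0.0425, and this too came from ratios whose signs had chosen the gene, so it is no evidence of a difference. With n = 2 stages and 1 RNA sample per genotype and stage, these values measure the spread between RNA samples of different age.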

How the data were processed

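The authors deposited 1 ratio per probe and array for 22562 probes. Per the submitters' processing notes the program was Agilent Feature Extraction; no source used here gives its version, background correction or dye normalization. The values the authors deposited were read as log10 ratios, that program's convention, and converted to log2 by a factor of 3.32. No scanner signal was at hand to check the base; were it log2, sizes would shrink by that factor. Exact zeros (45.0% and 43.7% of values in aged adults, 48.8% and 52.2% in young adults) were taken as missing, so the depth behind a ratio is unknown and the number of arrays limits precision.

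A single gene symbol was available for 7718 probes, none had several, and 14844 stay unnamed here; 7691 matched WBcel235. The dye orientations of each stage were averaged, and the resulting 2 values per gene were set against 0. This used limma 3.58.1 under R 4.3.3, with eBayes and Benjamini-Hochberg adjustment over 2222 genes, after a test on simulated data. The changes planted in that test were larger than the mean of any member. It therefore does not show whether changes of the members' size would be called. Alternatives covered centring, scaling, quantile normalization, probe averaging, zeros, orientation, thresholds and each array left out.

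Members, lists and role groups were chosen with earlier results of these data known. Genes named are the 25 lowest, all with a class symbol, the 5 nearest the rule on either side and the 5 with the smallest and the 5 with the largest stage spread; class mates and clone neighbours were added afterwards by name. Planned protein and promoter features were not analysed here.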

Additional observations from a re-analysis of the deposited data

How the results depend on the processing

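Of 4 arrays, leaving out 1 in turn gave 169 to 280 genes below 0 on the remaining 3, the highest count without the aged Cy5 array; each setting kept all 108 genes by construction. Quantile normalization gave 106 genes, 77 of them among the 108. Requiring every ratio below -0.2 or -0.5 left 42 and 17 genes, and over probes, named or not, 440 met the rule. Genes above 0 on all 4 arrays, the rule with the sign turned, numbered 226. With both Cy3 arrays turned, as applies if the authors turned none, 30 other genes met the rule. By construction none of the 108 could meet it then, and their means became differences between negative ratios. The median of the 108 was then 0.0023 in place of -0.52, with 56 of the 108 means above 0. Centring moved that median to -0.58 and scaling to -0.59. Calls by limma among the 108 were 9 at an unadjusted p, 1 after scaling (cror-1) and 0 to 1 leaving out 1 array (C18D11.6 without the young Cy3 array), where the lone orientation is assumed to vary like the averages; the cause was not tested. Centring, the robust prior and stage as a block gave 0. Of 620 means of the 62 named genes under 10 settings, 477 moved by less than their stage SD and 143 by more; 33 changed sign, all with the swapped arrays turned. No paired analysis was possible because replicate numbers linking samples are missing from the labels; a ratio is itself a comparison of mutant with wildtype.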

Other observations

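Genes with a ratio on only 3 arrays were outside the rule. Of 605 such coding genes, 37 (6.12%) were below 0 on all 3, and 12 of these had a mean below -1. The lowest was C06E4.6, on chromosome IV, whose sequence name belongs to the same clone as C06E4.3. It had -0.76 on the aged Cy3 array, against -2.21 and -3.01 in young adults. K07A1.6, on chromosome I, had -2.22 on that aged adult array, against -1.22 and -1.05 in young adults. T16G1.6, on chromosome V, had -0.80 and -2.24 in aged adults, against -0.86 on the young Cy5 array. These genes were chosen after their values were seen.

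Of the genes that were below 0 on all 4 arrays, 6 more were left out by type or class. The pseudogene Y46H3C.6, on chromosome V, had -1.01 and -0.94 in aged adults, against -0.71 and -1.33 in young adults. The pseudogene F59B2.11 had -1.38 and -1.60 in aged adults, against -0.19 and -0.14 in young adults, and the pseudogene F52C6.13 had a mean of -0.13. The coding genes ints-4, cest-33 and cest-19 had means of -0.77, -0.65 and -0.46. Of 6013 unnamed probes with 4 ratios, 325 (5.41%) were below 0 on all 4 arrays; their genes are unnamed here.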
